A study of Bos taurus with 10 samples.

Results

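A set of cDNA clones gave opposite differences between pregnancy and the oestrous cycle in different twin pairs of cattle. The 142 clones were selected on the measured values themselves: the pregnant twin was at least 2-fold above its control twin in at least 1 pair, and at least 2-fold below it in at least 1 other pair. They are 4.62% of the 3071 clones with a value in every sample, which are called complete clones below, and the array set held 4608 clones in all. Of the other complete clones, 1316 reached 2-fold only upward, 276 reached it only downward and 1337 stayed within 2-fold in every pair. Since every within-pair difference took part in the choice, the members' differences are given as a description, with no test.

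The samples were endometrium, the inner lining of the uterus, taken between the caruncles from the caudal part of the ipsilateral uterine horn on day 18 of pregnancy or of the cycle. The 10 animals were Simmental (Deutsches Fleckvieh), non-lactating, and formed 5 monozygotic twin pairs made by splitting embryos, with ages of 69, 62, 61, 66 and 68 months in pairs 1 to 5. The twins had the same number of lactations in pairs 1 to 3, while in pairs 4 and 5 the pregnant twin had 2 and the control 1. All cycles were synchronised with cloprostenol. In each pair, 1 twin received in vitro produced blastocysts and carried a conceptus at slaughter, and the other received a sham transfer of medium and served as a cycling control. Only tissue that had touched the conceptus was taken from pregnant animals. The clones came from libraries subtracted for cDNAs upregulated by pregnancy in pair 4 alone, and so are not a sample of the whole transcriptome. Labelled cDNA of each animal was hybridised to 3 arrays, in parallel for the twins of a pair. Serum progesterone was between 2.5 and 7.6 ng/ml in the pregnant animals and between 1.9 and 4.5 ng/ml in 4 control animals. For the control animal of pair 2, the label names a control while the treatment note is word for word the one of the pregnant sister, and no hormone level was taken from it.

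Around day 18 the bovine conceptus elongates and secretes interferon tau, which reaches the endometrium before attachment and acts there on luminal epithelium, glands and stroma. Interferon tau lowers the pulses of prostaglandin that would otherwise end the corpus luteum, and it induces many interferon-stimulated genes. Comparing identical twins holds the genetic background equal within a pair, while pairs still differ from one another in genotype. They may also differ in cycle length, tissue makeup and the state of the conceptus, which were not compared here. Endometrium is a mixed tissue, so a difference in level cannot be told apart from a difference in the share of cells that carry the transcript.

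The clones are known only by library prefix (18c, 18e or 18f), plate and well. The file does not pair them with genes, 0 of the 4608 identifiers matched an entry of RefSeq for assembly ARS-UCD2.0, and no clone sequence was used here, so no clone is given a gene name or sequence. Tissue markers could not be checked for the same reason. The same cDNA may be present in several clones, which then share their values. Values below are deposited intensities on a linear scale; differences are log2 of the pregnant minus the control twin after values under 0.2 were set to 0.2.

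The reciprocal response of a clone is the smaller of its largest upward and its largest downward difference over the pairs. At 3.12 on the log2 scale it was largest for clone 18c-03-B04. Its intensities in the pregnant animals of pairs 1 to 5 were 2.12, 11.95, 0.32, 13.68 and 1.80. Their control twins had 1.30, 5.50, 2.99, 1.57 and 0.87. The pregnant twin was thus 8.71-fold higher in pair 4 and 9.34-fold lower in pair 3, while the other 3 pairs lay between 1.63-fold and 2.17-fold higher. All control values lay within the range of the pregnant values, and the mean difference was 0.55 ± 2.32 (SD, n = 5 pairs).

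The clones most like it over the 10 samples were all members: 18c-03-G04 (Pearson r = 0.991), 18c-06-C10 (r = 0.975) and 18c-03-C12 (r = 0.932). Clone 18c-03-G04 had 8.11, 39.17, 1.47, 37.76 and 6.34 in pregnant animals and 7.11, 15.40, 10.59, 5.49 and 3.37 in controls. Clone 18c-06-C10 had 10.77, 34.33, 1.11, 32.15 and 5.54 in pregnant animals and 7.68, 17.13, 10.10, 5.57 and 2.81 in controls. In both, the pregnant animal of pair 3 had the lowest of the 10 values, and the pregnant animals of pairs 2 and 4 had the highest. Clone 18c-11-F12 repeated this with 20.44, 45.97, 1.28, 43.02 and 5.96 in pregnant animals and 24.15, 27.35, 15.04, 8.95 and 3.41 in controls, which put pair 3 at 11.8-fold lower and pair 4 at 4.81-fold higher. Clone 18c-03-C12 was 9.70-fold lower in pair 3 and 3.17-fold higher in pair 4. These correlations rest on the same values as the choice of members and are given without a p-value.

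A brighter clone split the same pairs. Clone 18c-16-E07 had 35.22, 411.29, 34.68, 574.01 and 92.37 in pregnant animals and 34.09, 336.92, 191.65, 97.43 and 87.73 in controls. The twins of pairs 1, 2 and 5 differed by at most 1.22-fold, while the pregnant twin was 5.89-fold higher in pair 4 and 5.53-fold lower in pair 3. Clone 18c-16-G01 lies on the same plate and had r = 0.959 with 18c-16-E07, at intensities between 0.21 and 3.32. Its pregnant twin was 13.0-fold lower in pair 3 and 4.43-fold higher in pair 4.

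The other clones with a large reciprocal response divided the pairs differently. Clone 18e-03-F02 had 3.06, 5.01, 1.83, 4.84 and 4.19 in pregnant animals and 21.38, 2.38, 0.17, 5.72 and 1.62 in controls. It was 6.99-fold lower in the pregnant twin of pair 1, and its 9.15-fold higher value in pair 3 rests on a control value set to 0.2. Clone 18c-03-A10 had 2.58, 4.15, 0.47, 0.42 and 0.62 in pregnant animals and 0.44, 2.62, 0.26, 2.20 and 1.25 in controls. There the pregnant twin was 5.86-fold higher in pair 1 and 5.24-fold lower in pair 4, with pair 5 also 2.02-fold lower.

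Most members sat close to the limit. The median reciprocal response was 1.20, and 27 members reached 1.5 and 10 reached 2. Just inside the limit, at 1.00, were 18e-06-D03 (1.00 in pair 4 and -1.56 in pair 5) and 18f-01-E10 (1.00 in pair 3 and -1.36 in pair 4). Just outside, at 0.98, were 18f-05-D10 (0.98 in pair 4 and -1.04 in pair 5) and 18f-04-E03 (3.61 in pair 3 and -0.98 in pair 2). A further 37 complete clones had a reciprocal response of 0.9 or more, so the limit cuts through a continuous range. With 3-fold required in each direction 24 clones remained, and with 1.5-fold 483 met the rule. Of the 1537 clones with values in only 4 complete pairs, 40 met it on those pairs.

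Pair 4 decided more members than any other pair. Its difference reached 2-fold in 117 of the 142 members (82.4%), 66 higher and 51 lower in the pregnant twin. The corresponding counts were 22 higher and 22 lower in pair 1, 34 and 19 in pair 2, 43 and 30 in pair 3, and 24 and 36 in pair 5. Over all complete clones, pair 4 also had the most at 2-fold or more in each direction, with 841 higher (27.4%) and 143 lower (4.66%). In the other pairs between 623 and 794 were higher and between 49 and 125 lower. Pair 4 is the pair from which the libraries were made, and its twins differ in lactations, as do those of pair 5. The part of either in the members' differences was not tested. When it was left out 48 of the 142 clones still met the rule. Leaving out pair 1, 2, 3 or 5 instead kept 111, 119, 99 or 105 of them.

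A single pair each way was the most frequent form. Of the members, 92 had 1 pair at 2-fold upward and 1 downward, 35 had 2 or more upward and 1 downward, 9 had 1 upward and 2 or more downward, and 6 had at least 2 each way. The most frequent opposition was between pairs 3 and 4, in 56 members, of which 29 were higher in pair 4 and lower in pair 3 and 27 the reverse. Clones higher in pair 4 and lower in pair 5 numbered 19, and those higher in pair 4 and lower in pair 2 numbered 18. In all, 42 different patterns over the 5 pairs occurred. In 2 members, 18c-01-A04 and 18c-03-E10, all 5 pairs reached 2-fold.

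Averaged over the pairs, the members showed little net difference, as the rule favours. Their mean difference had a median of 0.13 and lay between -0.55 and 1.00, and 93 of 142 were above 0. Over all complete clones the median was 0.24. The SD of the difference over the pairs had a median of 1.15 in members and 0.51 in complete clones. In a limma fit with the twin pair as a block, over all 4608 clones, 15.0% of clones were called higher and 0.716% lower in pregnant twins at a Benjamini-Hochberg adjusted p of 0.05. Of the members, 0 were called in either direction by limma, and 0 had an unadjusted p below 0.05. The rule used this contrast, so nothing is read from these counts. After each sample was brought to a common median the fit called 502 clones higher and 757 lower, so the split of the background depends on scaling.

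Members were found from faint to bright clones. Their mean log2 level over the 10 samples ranged from -1.81 to 8.57, against -2.32 to 9.01 in complete clones. It had a median of 0.51 and quartiles of -0.45 and 4.07, against a median of 0.49 and quartiles of -1.02 and 2.83 in complete clones. By level, the share of complete clones that were members was 10.1% (19 of 188) at a mean log2 level of 6 or more, 5.28% between 4 and 6, 2.52% between 2 and 4, 2.91% between 1 and 2, 5.74% between 0 and 1, 6.45% between -1 and 0 and 3.08% below -1. The share was thus highest among bright clones, lowest between 1 and 4, and higher again just below 1. The bright members include most of 1 set of 9 clones with a shared profile, described below, which may be copies of 1 cDNA. Apart from 18e-1(VS)-D02 at 0.68, the mean log2 levels of that set were 6.14 to 7.59. The share at 6 or more therefore leans on that set and was not computed without it. An intensity of at least 10 in every sample was reached by 22 of the 142 members and by 369 of the 3071 complete clones. Below 1 in every sample were 6 members. At least 1 value had been set to 0.2 in 37 members, and 120 members met both sides of the rule on twins that were both above 0.2. The counts below 1 and at 0.2 were not made over all complete clones.

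The 4 brightest members all included pair 2 on the lower side. Clone 18e-01-F10 had 395.81, 319.21, 313.09, 459.75 and 354.70 in pregnant animals and 531.36, 806.09, 374.95, 168.01 and 349.69 in controls. The control animals of pairs 2 and 4 held its highest and lowest values, and the 5 pregnant values lay between them. Clone 18f-03-F07 had 602.45, 255.04, 385.48, 346.44 and 425.01 in pregnant animals and 537.35, 677.36, 355.36, 145.64 and 338.52 in controls, with the same 2 controls at the extremes. For 18e-01-F10 the pregnant twin was 2.53-fold lower in pair 2 and 2.74-fold higher in pair 4, and for 18f-03-F07 it was 2.66-fold lower and 2.38-fold higher.

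Clone 18f-05-A01 had 531.60, 301.26, 314.18, 276.34 and 392.26 in pregnant animals and 520.46, 675.91, 310.08, 245.98 and 103.26 in controls. It was 2.24-fold lower in pair 2 and 3.80-fold higher in pair 5, and the other 3 pairs differed by at most 1.12-fold. Clone 18c-13-A09 had 76.78, 223.09, 244.12, 747.67 and 210.98 in pregnant animals and 86.13, 461.48, 337.47, 196.87 and 133.27 in controls. Here the pregnant animal of pair 4 stood above all others and was 3.80-fold above its twin, while pair 2 was 2.07-fold lower. The clones most like 18e-01-F10 were the member 18f-03-F07 (r = 0.870) and 2 clones outside the set, 18e-03-F03 (r = 0.858) and 18e-01-H10 (r = 0.847). At 18e-03-F03 pair 2 was 1.81-fold lower and pair 4 1.58-fold higher, so it missed the limit on both sides.

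Among members with several pairs on 1 side, those with the highest lowest value formed a bright set in which pair 1 stood against pair 2. Clone 18f-1(VS)-B05 had 226.96, 536.07, 158.79, 186.75 and 144.32 in pregnant animals and 454.17, 162.65, 73.70, 191.98 and 133.85 in controls. The highest control was the animal of pair 1 and the highest pregnant value was that of pair 2, and the pregnant twin was 2.00-fold lower in the former pair and 3.30-fold higher in the latter. Clone 18e-02-A07 had 271.80, 393.50, 117.59, 165.72 and 156.08 in pregnant animals and 627.23, 166.12, 63.05, 222.11 and 64.48 in controls. Clone 18f-05-G08 had 236.69, 402.53, 113.80, 159.32 and 143.01 in pregnant animals and 556.16, 156.97, 67.55, 218.81 and 67.58 in controls. In both, pairs 2 and 5 were more than 2-fold higher in the pregnant twin and pair 1 was 2.31-fold and 2.35-fold lower. Clone 18f-03-E08, with 177.33, 293.94, 90.72, 141.33 and 128.30 in pregnant animals and 518.09, 135.59, 61.07, 191.17 and 58.32 in controls, was 2.92-fold lower in pair 1.

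Many members shared their profile over the 10 samples. Grouping them by Pearson correlation of log2 values (average linkage, r of 0.9) gave 17 sets of 3 or more clones, which held 70 of the 142 members, and 48 members stood alone. With r of 0.8 or 0.95 the sets held 117 or 23 members. This grouping, and the clones named from it, were chosen after the values were seen. Clones of a set may be copies of 1 cDNA, which was not tested because no sequence was used.

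The largest set held 9 clones from 7 plates of the 18e and 18f prefixes and included the bright clones in which pair 1 opposed pair 2. In pair 1 their pregnant twins were lower by at least 2-fold, down to -1.55 on the log2 scale, and in pair 2 they were higher by 1.12 to 2.29. A further 24 complete clones outside the members had r of 0.9 or more with the mean profile of this set. Their median differences were -0.81 in pair 1 and 1.31 in pair 2. These clones were picked by likeness to that profile over the same samples, so the shared direction follows from the choice. Without pair 1, 0 of the 9 clones met the rule.

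A set of 5 clones from 5 plates of the 18c prefix had the widest spread between twin pairs. Clone 18c-04-A05 had 676.19, 535.08, 12.61, 26.98 and 47.24 in pregnant animals and 238.20, 276.78, 4.48, 246.19 and 128.12 in controls. The geometric mean of the twins ranged from 7.52 in pair 3 to 401 in pair 1, a 53.4-fold range and the widest of all complete clones. Clone 18c-01-A04 had 419.16, 484.72, 13.83, 32.75 and 40.63 in pregnant animals and 99.29, 204.96, 3.83, 208.34 and 141.64 in controls. Clone 18c-03-E10 had 201.30, 98.03, 4.38, 8.58 and 14.21 in pregnant animals and 55.89, 41.67, 1.06, 35.74 and 32.67 in controls.

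In all 5 clones of that set the pregnant twin was higher in pairs 1, 2 and 3 and lower in pairs 4 and 5. In pair 4 the pregnant twin was 9.12-fold lower for 18c-04-A05, 6.36-fold lower for 18c-01-A04 and 4.17-fold lower for 18c-03-E10. The other 2, 18c-02-B11 and 18c-15-G06, were fainter, with geometric means of the twins of at most 4.36 and 7.27, and were 2.96-fold and 2.92-fold lower in pair 4. The set had 3 complete clones outside the members with r of 0.9 or more.

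The same 3 bright clones were among the 6 members that had at least 2 pairs each way and therefore met the rule whichever pair was left out. Clone 18c-14-G04 had 3.07, 5.32, 0.20, 0.21 and 0.57 in pregnant animals and 1.08, 2.54, 0.15, 1.79 and 1.44 in controls. It matched their direction in pairs 1, 2, 4 and 5, while pair 3 lay at the floor of 0.2 in both twins. Clone 18c-13-G10 had 1.22, 3.46, 4.50, 3.64 and 0.87 in pregnant animals and 2.65, 4.97, 0.88, 1.17 and 2.33 in controls, with differences of 2.35 in pair 3 and 1.64 in pair 4 against -1.12 in pair 1 and -1.42 in pair 5. Clone 18e-02-H03 had 2.93, 5.71, 0.82, 2.31 and 1.03 in pregnant animals and 9.04, 1.52, 0.77, 0.98 and 2.81 in controls. Its differences were 1.91 in pair 2 and 1.24 in pair 4 against -1.63 in pair 1 and -1.45 in pair 5, so in 18c-13-G10 and 18e-02-H03 pairs 1 and 5 were lower and pair 4 higher, joined by pair 3 in the former and pair 2 in the latter.

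A set of 5 clones from 5 plates of the 18e and 18f prefixes placed pair 3 against pair 4 at moderate intensity. Clone 18f-06-F07 had 96.13, 131.74, 26.52, 85.01 and 62.16 in pregnant animals and 78.13, 165.39, 54.13, 18.40 and 51.60 in controls. Clone 18e-06-D09 had 98.49, 138.34, 9.81, 15.62 and 23.04 in pregnant animals and 118.12, 129.66, 24.80, 2.56 and 18.94 in controls. In both, the control of pair 4 held the lowest of the 10 values. The differences of the 5 clones were -1.85 to -1.01 in pair 3 and 1.19 to 2.61 in pair 4, with the other pairs between -0.59 and 0.36. A further 25 complete clones had r of 0.9 or more with the mean profile of the set, with median differences of -0.38 in pair 3 and 0.92 in pair 4. They too were picked by this likeness, so the shared direction follows from the choice.

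Pair 2 stood against pair 4 in 4 clones from 4 plates of the 18c prefix. Clone 18c-14-B11 had 33.77, 85.96, 53.91, 164.67 and 41.00 in pregnant animals and 54.05, 283.63, 77.43, 71.67 and 32.27 in controls. Clone 18c-07-H02 had 21.95, 51.33, 18.26, 119.88 and 20.08 in pregnant animals and 26.82, 171.52, 29.91, 24.73 and 16.79 in controls. The highest value was that of the control of pair 2, followed by the pregnant animal of pair 4. The remaining clones of the set, 18c-03-A01 and 18c-05-H01, had mean log2 levels of -1.74 and -1.81 and values at the floor, so their profiles rest on few measured animals.

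Another set of 4 clones of the 18c prefix was low in both twins of pair 1. Clone 18c-12-D09 had 1.30, 59.81, 53.48, 15.77 and 59.19 in pregnant animals and 1.10, 23.89, 22.81, 47.99 and 57.91 in controls. The neighbouring well, 18c-12-D10, had 1.39, 50.18, 46.30, 10.56 and 45.64 in pregnant animals and 0.96, 27.46, 15.90, 39.24 and 53.03 in controls. Both twins of pair 1 were thus below 2, while all other animals were above 10. In pairs 2 and 3 the pregnant twin was the higher one, in pair 4 it was 3.04-fold and 3.72-fold lower, and in pair 5 the twins differed by at most 1.16-fold. The other clones of the set, 18c-06-C03 and 18c-13-G12, lay under the floor in both twins of pair 1, and were 4.53-fold and 3.00-fold higher in the pregnant twin of pair 3.

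Unscaled levels also differed between twin pairs, and so did the sample medians over complete clones. These medians were 3.48 and 2.27 in the pregnant and control twin of pair 2, and 1.37 and 0.72 in pair 3. The part of such sample-wide differences in the ranges given here was not tested. The range of the twins' mean level over the pairs had a median of 2.15 on the log2 scale in members and 2.02 in complete clones. A range of 2 or more was reached by 86 of the 142 members and, since their median lies above 2, by most complete clones as well. Over the 142 members, the deviations of twins from their group means correlated with r = 0.661 in pair 1, 0.222 in pair 2, 0.193 in pair 3, -0.097 in pair 4 and 0.173 in pair 5. Over the 3071 complete clones these values were 0.743, 0.594, 0.364, 0.468 and 0.361. The choice of clones with large within-pair differences lowers the correlation in members, and these values are across clones measured in the same 10 animals. The pregnant animals of pairs 1, 2 and 5 correlated best with their own twin over the members, while that of pair 3 correlated best with the control of pair 5 (r = 0.295) and that of pair 4 with the control of pair 3 (r = 0.403). Over the complete clones the own twin was the best match in all 5 pairs. Because the twins of a pair were hybridised in parallel, likeness of the animals and a shared hybridisation cannot be told apart.

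The members were spread over all prefixes, with 80 of 1536 complete 18c clones (5.21%), 36 of 767 18e clones (4.69%) and 26 of 768 18f clones (3.39%). Single plates held between 1 and 8 members. The patterns were less evenly spread. Clones higher in pair 5 and lower in pair 4 numbered 16, all on 18e and 18f plates, and those higher in pair 1 and lower in pair 4 numbered 12, all on 18c plates. The complete clones differed by plate too, given here for rows A, C, E and G and then the other rows. At least 2-fold higher in pair 5 were 320 of 767 and 165 of 768 on 18e and 18f plates. On 18c plates these were 86 and 61, each of 768. Lower in pair 4 were 59 and 33 against 25 and 26, and higher in pair 1 were 180 and 212 against 129 and 102. The 18c plates and the 18e and 18f plates appear to lie on different arrays, as inferred from plate names, so prefix and array cannot be told apart.

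Position on the plate moved with the direction of the response. On 18e and 18f plates, the 34 members in rows A, C, E and G were higher in pair 4 in 0 cases and lower in 23, and higher in pair 5 in 21 and lower in 1. The 28 members in rows B, D, F and H of the same plates were higher in pair 4 in 16 cases and lower in 5, and higher in pair 5 in 2 and lower in 7. In pair 3 the former were higher in 14 cases and lower in 0, and the latter higher in 7 and lower in 9. Of the 767 complete clones in the former rows, 183 were at least 2-fold higher and 59 lower in pair 4, and 320 higher and 2 lower in pair 5. Of the 768 in the latter rows, 258 were higher and 33 lower in pair 4, and 165 higher and 27 lower in pair 5. In pair 4 the members of rows A, C, E and G lay mostly on the lower side, while more complete clones of those rows were higher than lower. The rule asks for a downward pair. In those rows 17, 5, 2, 59 and 2 complete clones were at least 2-fold lower in pairs 1 to 5. In the other rows these counts were 10, 5, 20, 33 and 27. Which side the members take in pair 4 is thus bound to the rule, which was applied alike in both row sets. The part of position in the contrast between row sets was not tested beyond the centring below. The medians of all complete clones on these plates also differed between the row sets. The median difference in pair 4 was 0.00 in rows A, C, E and G and 0.36 in the other rows, in pair 5 it was 0.73 and 0.02, and in pair 3 it was 0.73 and 0.35. On 18c plates the medians of the row sets were 0.35 and 0.21 in pair 4 and 0.00 and 0.00 in pair 5. When each pair's differences were centred within array and row set, 133 clones met the rule, and 96 of the 142 members were among them.

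The profile sets differed in this respect. In 4 sets of 18e and 18f clones the pregnant twin was at least 2-fold lower in pair 4 and higher in pair 5, by at least 2-fold in 3 of these sets and by 0.38 to 0.97 on the log2 scale in the fourth. All 17 of their clones lay in rows A, C, E and G, and after that centring 1 of 5 and, in each of the others, 1 of 4 met the rule. Other 18e and 18f sets lay wholly in rows B, D, F and H. They were the set of 5 with 18f-06-F07, of which 4 met the rule after centring, and 2 sets of 3, of which 3 and 0 did. The set of 5 with 18c-04-A05, the set of 4 with 18c-03-B04 and the set of 4 with 18c-12-D09 kept all their clones, and the set of 9, with 6 clones in rows A, C, E and G, kept 6. With samples brought to a common median, these sets kept 4 of 5, 4 of 4, 1 of 4 and 6 of 9, and with a common median within each inferred array 4 of 5, 4 of 4, 1 of 4 and 2 of 9. Of the 16 members named for a large, bright or repeated response, 12 met the rule after the centring within array and row set. With a common median within each inferred array, 10 did. The 4 that did not after the centring were 18f-03-F07, 18f-05-G08, 18e-02-A07 and 18f-03-E08. With the common median within arrays, 18e-01-F10 and 18f-1(VS)-B05 did not meet it either. Members were also unevenly spread over columns: columns 5, 6, 11 and 12 held 23 members among 1024 complete clones (2.25%) and the other columns 119 among 2047 (5.81%), a split made after the counts were seen. The part of print position in the members' responses was not tested beyond this centring.

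Some faint members followed a much brighter clone. For 20 members a complete clone at least 8-fold brighter had r of 0.95 or more, on the same plate in 3 cases and in the same well of another plate in 0. This search was made for members only, so whether such matches are more frequent among them than among other clones is not known. A set of 4 18c clones held 3 wells of column 7 of 1 plate: 18c-11-D07 had intensities between 101.56 and 648.18, while 18c-11-B07 lay between 0.83 and 8.64 and 18c-11-F07 between 1.03 and 5.79. In all 3 the pregnant twin was the lower in pairs 2 and 3, and in pair 4 it was 3.77-fold, 8.64-fold and 4.17-fold higher. Whether signal of the bright spot reached the faint ones was not tested.

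Scaling changed which clones met the rule. Sample medians over complete clones ranged from 0.72 to 3.48, and the pregnant twin had the higher median in every pair. After each sample was brought to a common median, 176 clones met the rule, of which 72 were members and 104 were not. Pair 4 again decided the most, in 131 of the 176 (74.4%). Of the 16 named members, 11 met the rule after this scaling. Clones 18e-01-F10, 18f-03-F07, 18f-05-G08, 18e-02-A07 and 18f-03-E08 did not.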

How the data were processed

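The authors deposited 1 linear intensity for each clone and animal, measured with 33P-labelled cDNA on spotted cDNA arrays, per the labels' protocols. How images were read, background removed and arrays normalised is not given in the sources used here. Per the labels, array B of pair 4 was too weak and was left out by the authors, so 1537 clones lacked a value and could not be members. Twins were matched by animal number and age. Values under 0.2 were set to 0.2, log2 was taken, and clones with a difference of 1 or more in a pair and -1 or less in another were kept, without rescaling. The members and lists were chosen with earlier results of these data known.

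The background fit used lmFit and eBayes of limma 3.58.1 under R 4.3.3, with 2.43 prior degrees of freedom, on the same log2 values, with the twin pair as a block, over all 4608 clones with at least 3 complete pairs. It was tested on simulated data. Other steps used Python 3.11.15 with scipy 1.17.1. The named clones were the 8 members with the largest reciprocal response, the 4 brightest by mean log2 level, the 4 with the highest lowest value among those with several pairs on 1 side, the 2 nearest the limit on each side, and the 3 clones most like the first of the first 2 lists. The table holds 1 value per clone and animal, so no technical error could be given, and the number of arrays limits the precision.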

Additional observations from a re-analysis of the deposited data

How the results depend on the processing

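The count of 142 clones became 92 with a floor of 0.5, 70 with a floor of 1, 483 at 1.5-fold, 24 at 3-fold, 92 with the brighter twin at 1 or more in both deciding pairs, 76 with it at 1.55, the median of all values, or more, and 6 with at least 2 pairs each way. Leaving out single pairs gave 48 to 119, with 48 for pair 4. With the twins of pair 2 exchanged, an alternative chosen after seeing the data because of the treatment text of that control, 691 clones met the rule, 119 of the members among them. As labelled, pair 2 had 696 complete clones at least 2-fold higher and 72 lower, and in each other pair more were higher than lower too. The count stayed within 1.5 times of 142 with a floor of 0.1 (211), quantile normalisation (170, with 64 of the members), a common median within each inferred array (158, with 62), values in at least 4 pairs (182), and the centring of pairs (161) and of array and row set (133), both chosen after seeing the data. In the fit over all clones, 690 were higher and 33 lower; without the replicate block these were 364 and 2, and 502 and 757 after samples were brought to a common median. With a pair left out they were 498 to 613 and 12 to 32 (12 without pair 3, 20 without pair 5). Twins were kept as a block because same-numbered animals are twins. Of the 16 named members, 6, 4, 6, 6 and 1 no longer met the rule without pairs 1 to 5. The reciprocal response went to 0.24 for 18e-03-F02, 0.85 for 18c-03-A10 and 0.04 for 18f-1(VS)-B05 without pair 1, to 0.24 for 18c-11-F12 without pair 3 and to 0.02 for 18e-01-F10 without pair 4, and it turned negative in 7 of 96 cases over 6 settings. Over the pairs left out it ranged from -0.71 to 3.12 for 18c-03-B04, -0.19 to 2.78 for 18c-03-G04, -0.49 to 2.53 for 18c-06-C10 and -0.05 to 2.47 for 18c-16-E07, each lowest without pair 3. It ranged from -0.13 (without pair 4) to 2.15 for 18c-16-G01 and, lowest without pair 2, from -0.12 to 1.25 for 18f-03-F07 and from -0.02 to 1.17 for 18f-05-A01. These changes follow from the removal of a deciding pair. None of 48 groups of 5 values of the named members held a value far from the rest by Dixon's criterion.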
